A study of Mus musculus with 4 samples.

Results

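The 39 genes described here are interferon-stimulated antiviral genes: sensors of viral RNA, enzymes and membrane proteins that block virus growth, the ISG15 conjugation system and the signalling factor Stat2. They were taken from the 22558 gene symbols of the series by name. All 39 have an estimate in the 2 control libraries and in the day 5 DTA library, and 10 have one in day 1 DTA, whose file covers only part of the genome. Levels come from RNA-seq of whole mouse retinas, as FPKM, a count of fragments corrected for transcript length and library size.

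Type I interferons bind the receptor pair Ifnar1 and Ifnar2 and activate the kinases Jak1 and Tyk2. These phosphorylate Stat2, which joins Irf9 in a complex that binds the interferon-stimulated response element (ISRE) of target promoters. Most target genes are low in resting tissue, and most cell types, glia and microglia among them, can express them.

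All mice were about 8 weeks old and of a mixed C57BL/6 and 129 background, and all carried one R26R-DTA allele, which makes diphtheria toxin fragment A (DTA) after Cre has acted. Injured mice (DTA group; Msi1-CreERT2/+ with R26R-DTA/+) also carried a ligand-dependent Cre under Msi1 control. Controls were +/+ at that locus with R26R-DTA/+, so the toxin and the presence of CreERT2 cannot be told apart. The 4 groups, control and DTA at day 1 and day 5 after injury, have 1 library each. The sources used here give neither the number of mice per library nor the agent that started Cre.

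With 1 library per group there is no replicate check, no SD and no p-value. A gene was called higher or lower by size: a difference of log2(FPKM + 1) of at least 1, a floor of 5 FPKM for the higher library, and a difference larger than the same gene's difference between the controls. Folds are FPKM ratios, given where both values are at least 0.2. Estimated depth was 28.2 to 97.7 M (mega) fragments per library, lowest in day 5 DTA. The authors' bounds had a median half-width of 8.05% to 22.5% of the FPKM over these genes and do not hold the spread between mice. Rod markers were abundant, 20 of them summing to 23304 FPKM in control and 7914 in DTA at day 5. Lens markers set the controls apart, with 10 of 11 lower at day 5. Retinal pigment epithelium markers did too, with 3 of 9 called lower (summed FPKM 157.2 at day 1 and 39.7 at day 5). So did Xist, the RNA of the inactive X chromosome, at 0.00596 FPKM in the day 1 control against 53.7 (control) and 60.4 (DTA) at day 5. Ddx3y, on the Y chromosome, stood at 15.6, 0.175 and 0.275 FPKM in the same libraries. By both genes the day 1 control was male and the day 5 libraries female, so day and sex cannot be told apart. Neither gene has an estimate in day 1 DTA.

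Isg15, Bst2 and Ifit1 had large differences at day 5. The neighbours Rsad2 and Cmpk2 stood higher in day 1 DTA than in day 5 DTA. Promoter sequences are shown for these 5 genes as examples. Each runs 5′ to 3′ along the gene's strand, from 250 bases before to 50 after the RefSeq start (build GRCm38.p6), and each was placed on mm9 by an exact match. Capitals mark matches to GAAANNGAAA on either strand, a simple form of the ISRE. Isg15 (chr4:155574878-155575177, minus strand) has 3 overlapping matches from base -78 of the start, Bst2 (chr8:74061322-74061621, minus) 2 from -130, Ifit1 (chr19:34715129-34715428, plus) 2 from -104, Rsad2 (chr12:27141268-27141567, minus) 1 at -120, and Cmpk2 (chr12:27153830-27154129, plus) none.
Isg15: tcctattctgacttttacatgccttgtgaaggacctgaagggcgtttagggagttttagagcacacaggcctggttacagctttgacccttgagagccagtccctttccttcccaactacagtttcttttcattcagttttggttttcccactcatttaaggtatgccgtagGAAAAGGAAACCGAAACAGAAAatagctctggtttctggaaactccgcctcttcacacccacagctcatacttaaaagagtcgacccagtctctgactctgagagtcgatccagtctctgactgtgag
Bst2: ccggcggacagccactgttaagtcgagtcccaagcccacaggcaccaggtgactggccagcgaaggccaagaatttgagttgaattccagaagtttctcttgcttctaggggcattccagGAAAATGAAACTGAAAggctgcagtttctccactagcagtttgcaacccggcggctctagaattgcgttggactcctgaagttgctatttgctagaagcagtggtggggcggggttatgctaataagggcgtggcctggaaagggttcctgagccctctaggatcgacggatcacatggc
Ifit1: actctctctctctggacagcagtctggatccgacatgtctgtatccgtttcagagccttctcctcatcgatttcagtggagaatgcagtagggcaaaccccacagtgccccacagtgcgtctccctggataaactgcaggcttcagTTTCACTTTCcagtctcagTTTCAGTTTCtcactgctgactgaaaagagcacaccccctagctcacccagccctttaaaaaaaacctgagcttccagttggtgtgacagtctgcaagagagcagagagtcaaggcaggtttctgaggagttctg
Rsad2: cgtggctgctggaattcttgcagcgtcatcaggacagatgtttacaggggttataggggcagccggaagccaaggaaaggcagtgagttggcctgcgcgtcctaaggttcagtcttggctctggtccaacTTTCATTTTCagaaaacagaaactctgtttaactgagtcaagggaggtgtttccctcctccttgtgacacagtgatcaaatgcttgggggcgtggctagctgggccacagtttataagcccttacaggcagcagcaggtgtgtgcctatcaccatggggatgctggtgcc
Cmpk2: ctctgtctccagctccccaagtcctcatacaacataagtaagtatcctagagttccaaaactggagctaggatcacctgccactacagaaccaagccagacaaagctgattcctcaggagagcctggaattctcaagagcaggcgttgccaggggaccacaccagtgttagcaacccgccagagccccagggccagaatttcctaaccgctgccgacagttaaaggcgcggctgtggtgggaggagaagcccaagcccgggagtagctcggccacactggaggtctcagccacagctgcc

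Such promoter windows were on hand for 28 of the 39 genes, and 12 of the 28 (42.9%) held at least 1 ISRE match, against 3.99% of 27025 symbols in the table. Oas1a, Oas3, Trim21, Ddx58, Ifih1, Eif2ak2, Stat2 and Ifit3 were the others. Matches to TTCNNNGAA, a simple form of the GAS element of interferon gamma target promoters, were in 7 of 28 (25.0%) and in 9.55% of symbols. At day 5 the 12 genes with an ISRE match had a median difference of 1.90 and 7 were called higher. The 16 without one had a median of 1.06, with 6 called. Both groups spanned a wide range, from -0.01 (Oas3) to 3.34 (Bst2) with a match and from 0.34 (Adar) to 3.09 (Isg20) without. Isg20, whose sequence is not shown above, thus exceeded Ifit1 (2.90) and Isg15 (2.57). Oas1a and Trim21, also not shown, held 2 matches each and had differences of 0.66 and 1.20. A match is a description of the letters, not a site shown to be bound.

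In control retinas these genes were low and alike at both days. The median level was 0.707 FPKM (day 1) and 0.777 (day 5), against 2.31 and 2.15 over all genes. Adar, Stat2, Lgals3bp and Trim25 were the 4 genes at 5 FPKM or more in each control. None of the 39 was called between the controls, where 0.355% of all symbols were called higher and 0.71% lower at day 5. Their median difference, day 5 minus day 1, was -0.01, and 36 of 39 lay within 0.25 of 0. Adar (0.32), Ifi27l2a (-0.28) and Ube2l6 (0.27) were the exceptions. Against the day 1 control in place of the day 5 one, day 5 DTA again had 15 genes called higher, with a median of 1.41.

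**Figure D1:**
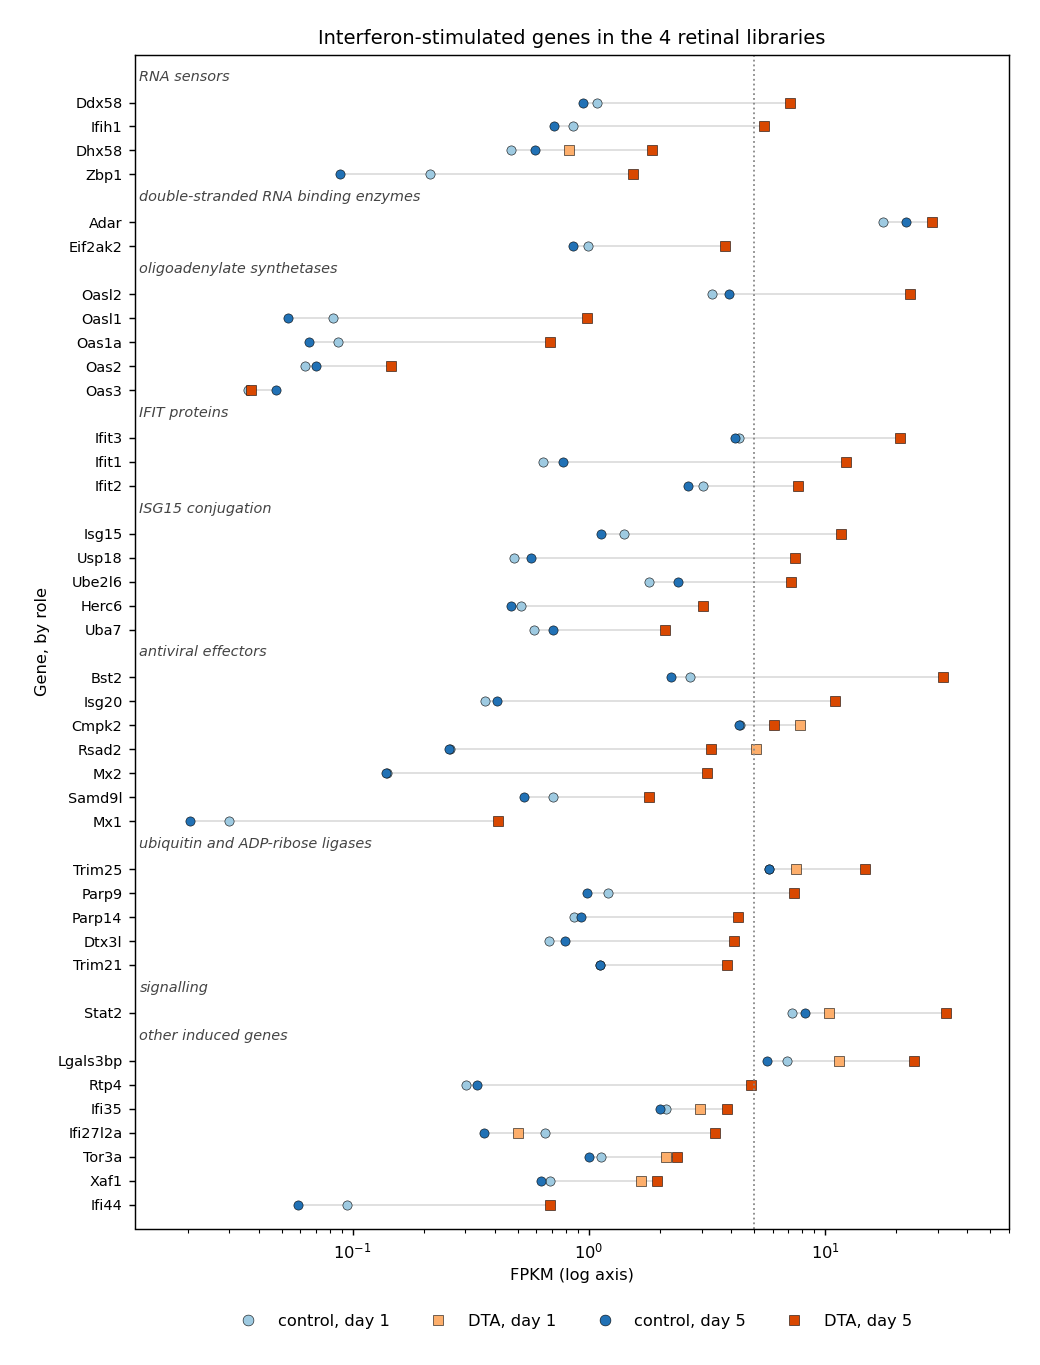
Points give the FPKM (log axis) of each gene, grouped by role, in each library: circles are controls, squares DTA, and the dotted line marks 5 FPKM. The 2 controls lie close together for most genes, while the day 5 DTA square lies to the right of both for every gene but Oas3.

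At day 5 the question is how far the antiviral programme differs once the injury has progressed. Of the 39 genes 15 were called higher in DTA and none lower (38.5% higher). Of all 22541 symbols measured 2.96% were called higher and 0.776% lower, and of the 13071 with a mean of at least 1 FPKM 5.1% were higher. The median difference of the 39 was 1.36, against 0.23 over those 13071 genes, and their summed FPKM was 78.1 in control and 310.4 in DTA. For 38 of 39 the DTA value lay above both controls, the exception being Oas3. Against the day 5 control alone 38 of 39 stood higher, as did 72.5% of the 13071 genes. A further 10 reached a difference of 1 without reaching 5 FPKM. By ratio, 34 of 39 stood at least 2-fold higher with the authors' bounds apart, a rule that took 9.72% of all symbols and was added after the values were seen. Adar, Cmpk2, Ifi35, Oas2 and Oas3 were outside it. In a bulk sample, more cells that express a gene and more RNA per cell cannot be told apart.

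**Figure D2:**
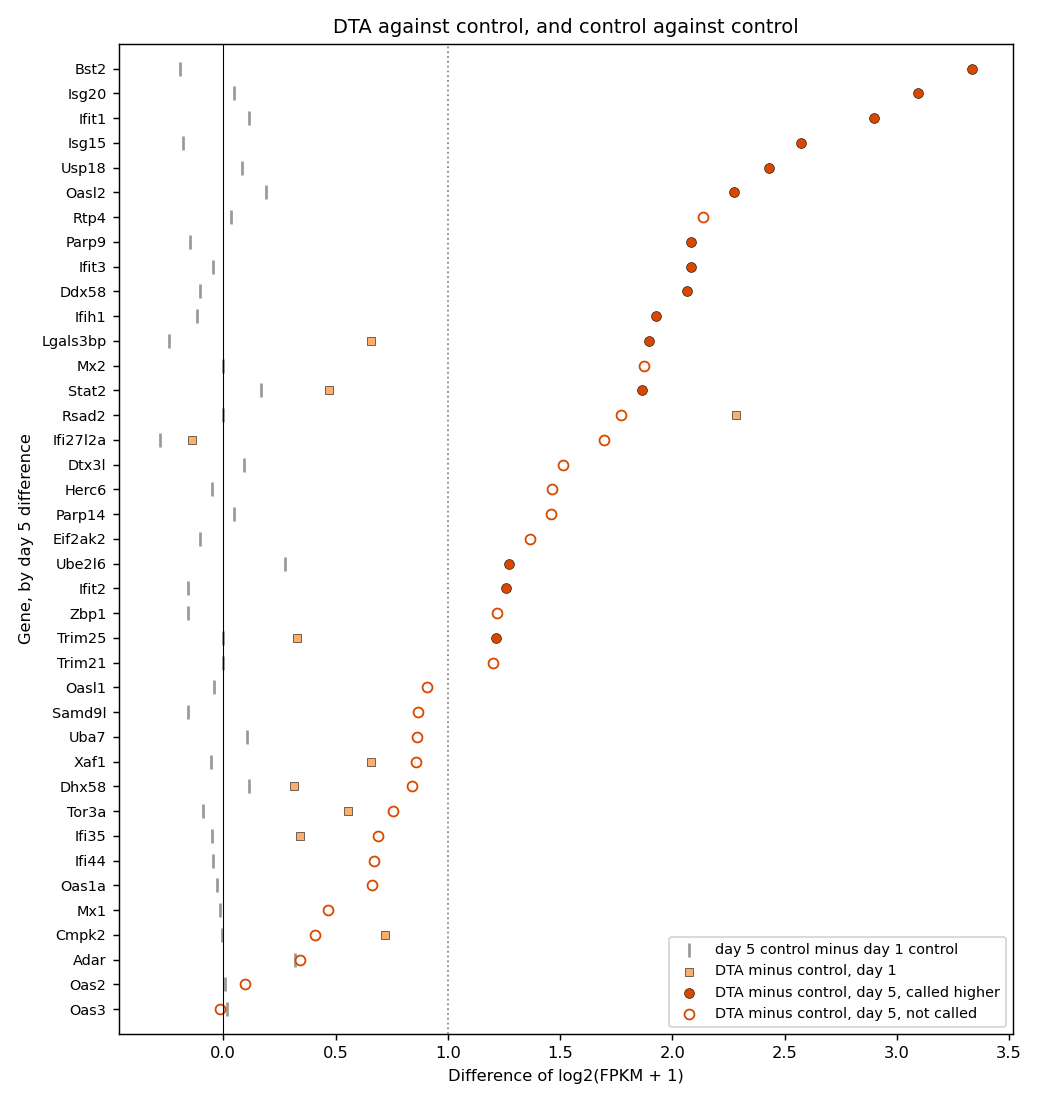
Each row is a gene, ordered by its day 5 difference of log2(FPKM + 1), DTA minus control (circles, filled where called higher). Squares give the day 1 difference for the 10 genes measured then and ticks the difference between the controls; the dotted line is the size of 1. Ticks stay within 0.32 of 0, and Rsad2 and Cmpk2 are the genes whose square lies right of the circle.

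Where 3 FPKM values of a gene follow each other, they are those of the day 1 control, the day 5 control and day 5 DTA. Among the 39 genes Bst2 (3.34) and Isg20 (3.09) had the largest differences; the 7 antiviral effectors they belong to had a median of 1.77, with 2 called. Bst2 encodes tetherin, which holds budding virions on the cell surface (chromosome 8, 74058161 to 74061336, mm9). It had control levels of 2.68 FPKM (day 1) and 2.22 (day 5) and reached 31.5 in day 5 DTA, 14.2-fold higher; that last estimate lies above its own upper bound of 26.9, so its size is uncertain. The day 5 DTA estimates of Isg15 and Lgals3bp also lie above their upper bounds, of 11.2 and 23.7 FPKM. Isg20 encodes an exonuclease of single-stranded RNA (chromosome 7, 86058651 to 86065282). Its levels in the same libraries were 0.362, 0.409 and 11.0 FPKM, a 27.0-fold difference. The controls of both genes were close together and far from the DTA library. Samd9l, a restriction factor that acts on translation, stood at 0.707, 0.533 and 1.8 FPKM, 3.37-fold higher and under the floor.

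The dynamin-like GTPases Mx1 and Mx2 trap viral nucleocapsids, and Mx1 is disrupted in many inbred strains, C57BL/6 included. Mx2 stood at 0.140, 0.138 and 3.17 FPKM in the 2 controls and day 5 DTA, a difference of 1.87 under the floor. Mx1 reached 0.411 FPKM in day 5 DTA from 0.0299 and 0.0205. The pair lies together on chromosome 16 (97668642 to 97782508), and both were under 0.2 FPKM in the controls.

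The IFIT proteins bind foreign RNA ends and block its translation, and all 3 measured here were called higher. Their genes lie within 99.3 kb of chromosome 19 (34625184 to 34724499). Ifit1 had control levels of 0.640 FPKM (day 1) and 0.777 (day 5) and reached 12.3 in day 5 DTA, 15.8-fold higher. Ifit3 stood at 4.30, 4.14 and 20.8 FPKM, 5.03-fold higher. Ifit2 stood at 3.05, 2.64 and 7.71 FPKM, 2.92-fold higher. Ifit1 began lowest and ended above Ifit2. Ifit3 has a close copy in the same cluster, listed as I830012O16Rik at 3.45, 3.18 and 13.8 FPKM, and fragments may be split between the copies.

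ISG15 is a ubiquitin-like protein that is joined to other proteins by Uba7 (the activating enzyme), Ube2l6 (the conjugating enzyme) and, in mice, Herc6 (the ligase), and is removed by Usp18. Isg15 itself lies on chromosome 4 (155573533 to 155574927). Its control levels were 1.41 FPKM (day 1) and 1.13 (day 5), and it reached 11.7 in day 5 DTA, 10.3-fold higher. Usp18, which also shuts off the type I interferon receptor, stood at 0.481, 0.569 and 7.47 FPKM, 13.1-fold higher. The modifier and its remover thus had larger folds than the enzymes that attach it. Ube2l6 stood at 1.79, 2.37 and 7.16 FPKM, 3.01-fold higher, and was called. Herc6 stood at 0.518, 0.468 and 3.05 FPKM, 6.53-fold higher, and Uba7 at 0.587, 0.708 and 2.11, 2.98-fold higher, both under the floor; the Uba7 locus overlaps Cdh29.

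Cytosolic RNA sensors were called in 2 of 4 cases. Ddx58, which encodes RIG-I, stood at 1.09, 0.940 and 7.12 FPKM in the 2 controls and day 5 DTA, 7.57-fold higher. Ifih1, which encodes MDA5, stood at 0.854, 0.710 and 5.50 FPKM, 7.75-fold higher, close to the floor. These 2 sensors had nearly the same fold. Dhx58 (LGP2), their regulator, stood at 0.468, 0.589 and 1.84 FPKM, 3.13-fold higher at day 5, a difference of 0.84. Zbp1, a sensor of Z-form nucleic acids that can trigger necroptosis, stood at 0.212, 0.0882 and 1.53 FPKM, a difference of 1.22 under the floor.

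Enzymes that act on double-stranded RNA differed less evenly. Eif2ak2 (PKR), which halts translation through eIF2 alpha, stood at 0.996, 0.859 and 3.79 FPKM, 4.41-fold higher and under the floor. Adar, the editing enzyme that marks RNA as self, was abundant everywhere, at 17.5 and 22.1 FPKM in the controls and 28.3 in day 5 DTA. Its 1.28-fold difference at day 5 (0.34) was about the size of that between the controls (0.32).

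Oligoadenylate synthetases make the second messenger that activates RNase L. Among them Oasl2, an OAS-like protein with ubiquitin-like domains, stood apart in level. It had control levels of 3.33 FPKM (day 1) and 3.93 (day 5) and reached 22.8 in day 5 DTA, 5.81-fold higher, and was the 1 of 5 called. Oasl1 reached 0.978 FPKM in day 5 DTA from 0.0823 and 0.0531, and Oas1a 0.688 from 0.0866 and 0.0656. Their controls were under 0.2 FPKM, so no folds are given to set against that of Oasl2. Oas2 stood at 0.0631, 0.0697 and 0.145 FPKM, and Oas3 at 0.0361, 0.0475 and 0.0369. For Oas2 and Oas3 the authors' day 5 bounds overlapped between control and DTA, so no difference was detectable at these levels. Oas1a has close copies in its cluster, among them Oas1g at 0.534 FPKM in day 5 DTA, so its level is uncertain. Oas1b, another gene of the cluster, stood at 0.269, 0.386 and 3.38 FPKM, 8.76-fold higher and under the floor.

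Ligases of ubiquitin and ADP-ribose include a block of 3 genes on chromosome 16 (35832964 to 35972691): Parp14, a mono-ADP-ribosyltransferase, and Parp9 with its partner Dtx3l. Parp9 stood at 1.20, 0.982 and 7.41 FPKM in the 2 controls and day 5 DTA, 7.55-fold higher, and was called. Dtx3l stood at 0.681, 0.791 and 4.10 FPKM, 5.19-fold higher, and Parp14 at 0.861, 0.923 and 4.28, 4.64-fold higher, both just under the floor. All 3 neighbours thus lay above both controls in day 5 DTA; Parp9 and Dtx3l overlap by 558 bases, where fragments cannot be assigned with certainty. Trim21, the cytosolic antibody receptor, stood at 1.12, 1.12 and 3.86 FPKM, 3.46-fold higher under the floor. Trim25, a ligase linked to RIG-I signalling, stood at 5.81 FPKM in both controls and 14.8 in day 5 DTA, 2.54-fold higher.

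Stat2, the partner of Irf9 in the ISRE-binding complex (chromosome 10, 127707632 to 127729905), was the most abundant of the 39 genes in day 5 DTA. It had control levels of 7.24 FPKM (day 1) and 8.25 (day 5) and reached 32.7 in day 5 DTA, 3.96-fold higher. Lgals3bp, a secreted glycoprotein that binds galectins, stood at 6.87, 5.66 and 23.8 FPKM, 4.21-fold higher. Both were already at 5 FPKM or more in the controls. Rtp4, a membrane-associated chaperone, stood at 0.302, 0.335 and 4.87 FPKM, 14.5-fold higher and just under the floor. The others of this group had smaller differences: Ifi35 0.69, Ifi44 0.67 (0.0942, 0.0586 and 0.687 FPKM), Tor3a 0.75 and Xaf1 0.86, with Ifi27l2a at 1.70.

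The number called at day 5 rests on the floor of 5 FPKM. It was 25 with a floor of 1 FPKM and 9 with a floor of 10 FPKM or a size of 4-fold. Median ratio scaling, which moved the median of the 13071 genes from 0.23 to 0.02, left 13 called and 38 of 39 above 0, with a median of 1.20 over the 39; Ifih1 (under 5 FPKM after scaling) and Trim25 (0.99) lost their calls. Of all calls at day 5, 79.2% were higher, and 62.4% after that scaling.

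At day 1 the question is which of these genes differ soon after the toxin is induced, and it can be put to 10 genes. Rsad2 was the 1 gene called higher and none was lower (10% of 10). Of 5785 symbols measured 0.933% were called higher and 0.277% lower. The median difference of the 10 was 0.51, against 0.04 over the 3512 genes with a mean of at least 1 FPKM. The summed FPKM of the 10 was 29.6 (control) and 50.4 (DTA) at day 1 and 28.9 and 94.1 at day 5. In day 1 DTA 9 of the 10 lay above both controls. Against the day 1 control alone 9 of the 10 stood higher, as did 57.6% of the 3512 genes. By the added ratio rule 2 of the 10, Rsad2 and Xaf1, stood higher at day 1, as did 3.35% of symbols.

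Rsad2 encodes viperin, which makes a chain-terminating nucleotide from CTP, and Cmpk2, a mitochondrial nucleotide kinase, lies next to it. The pair lies on chromosome 12, Rsad2 at 27127608 to 27141317 on the minus strand and Cmpk2 at 27154080 to 27164702 on the plus strand, so their starts face each other. Rsad2 measured 0.258 FPKM (control) and 5.12 (DTA) at day 1, then 0.256 (control) and 3.29 (DTA) at day 5, 19.8-fold and 12.8-fold above the control of the same day. Cmpk2 stood at 4.35, 7.81, 4.33 and 6.08 FPKM in the same order, 1.79-fold and 1.40-fold higher. These were the 2 genes of the 10 that stood higher in day 1 DTA than in day 5 DTA, Rsad2 by 1.56-fold and Cmpk2 by 1.28-fold. The authors' bounds, which do not hold the spread between mice, were 4.67 to 5.27 (day 1 DTA) and 2.86 to 3.63 (day 5 DTA) for Rsad2. For Cmpk2 they were 7.08 to 7.87 and 5.30 to 6.62. The day 5 difference minus the day 1 difference was -0.51 for Rsad2 and -0.31 for Cmpk2, and neither was called. Rsad2 lies just over the floor at day 1, and its call ended with a pseudocount of 5 (0.94) and under both other scalings, which leave it under 5 FPKM with differences of 2.24 and 2.23.

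**Figure D3:**
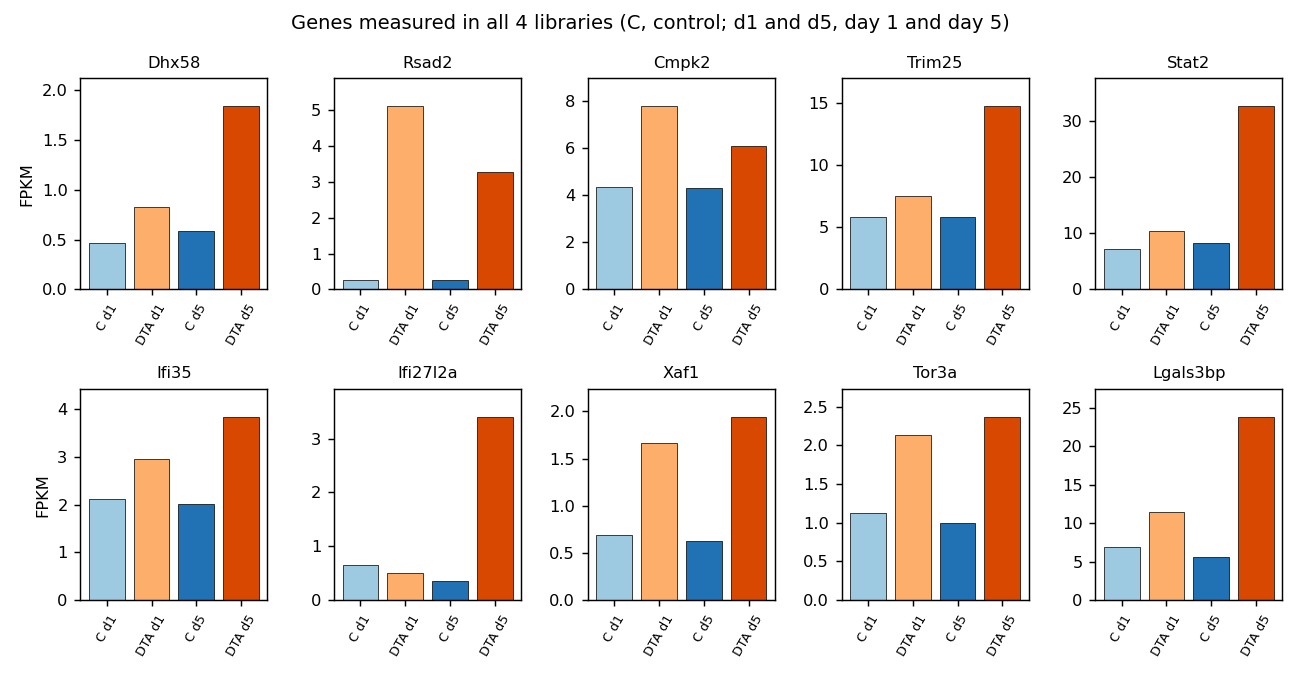
Bars from 0 give the FPKM of the 10 genes with an estimate in all 4 libraries, each panel with its own axis. The 2 control bars are alike in most panels, day 5 DTA is the highest bar in 8 panels, and Rsad2 and Cmpk2 are highest in day 1 DTA.

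The remaining 8 genes stood higher in day 5 DTA. Stat2 stood at 10.4 FPKM in day 1 DTA, 1.44-fold above its control, and then 3.14-fold higher at day 5 than at day 1. Lgals3bp stood at 11.4 FPKM in day 1 DTA, 1.66-fold above its control, and 2.09-fold higher again at day 5. Its day 1 DTA estimate, like the day 5 one, lies above its own upper bound (11.1), so these sizes are uncertain. For Stat2 and Lgals3bp the day 5 difference exceeded the day 1 difference by 1.39 and 1.24. They were the 2 of 10 called in that direction, where 1.45% of 5783 symbols were called higher and 1.21% lower. Ifi27l2a had the largest excess of the 10 (1.84) but stayed under the floor, and Trim25, at 7.56 FPKM in day 1 DTA, had an excess of 0.88.

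Xaf1 and Tor3a were close to their day 5 DTA level by day 1. Xaf1, a pro-apoptotic partner of XIAP, measured 0.686 FPKM (control) and 1.66 (DTA) at day 1, then 0.625 (control) and 1.94 (DTA) at day 5. Tor3a, an ATPase of the endoplasmic reticulum, stood at 1.13, 2.13, 0.999 and 2.37 FPKM in that order. In day 5 DTA they stood 1.17-fold and 1.11-fold above day 1 DTA. Ifi35, which joins Nmi in cytosolic complexes, stood at 2.11, 2.95, 2.01 and 3.84 FPKM. Dhx58 stood at 0.828 FPKM in day 1 DTA, 1.77-fold above control, and 2.23-fold higher again in day 5 DTA. Ifi27l2a, a small mitochondrial membrane protein, measured 0.654 FPKM (control) and 0.50 (DTA) at day 1, then 0.359 and 3.41 at day 5. Its day 1 DTA level lies between the controls, so the sign of its day 1 difference (-0.14) turns with the day 5 control (0.14), and the authors' day 1 bounds overlap.

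The signalling chain above these genes was described from lists of its ligands, receptors, factors, sensors and brakes. Interferon transcripts were at or near 0 where measured. Of 19 ligands measured at day 5, 16 were listed at 0 in control and 14 in DTA, and none was called. Ifnb1, interferon beta, was at 0 in each control and measured 0.221 FPKM in day 5 DTA, which is about 4.79 fragments at the estimated depth. Ifnab stood at 0, 0.0273 and 0.324 FPKM, about 6.11 fragments in DTA. Ifng, the type II interferon, measured 0.00906 FPKM in day 1 DTA and 0 in the other libraries. It was the 1 ligand with an estimate in day 1 DTA, so type I and type III interferons were not measured there. Of 6 receptor genes none was called, with Ifnar1 at 7.04 (control) and 7.97 (DTA) FPKM at day 5 and Ifnar2 at 3.13 and 5.90. Il28ra, a receptor chain for type III interferon, was the lowest of the 6, at 0.0275 and 0.145 FPKM.

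Of 9 receptor kinases and transcription factors with an estimate at day 5, 4 were called higher and none lower. Irf9, the DNA-binding partner of Stat2, stood at 5.18, 6.80 and 40.6 FPKM in the 2 controls and day 5 DTA. Irf7, the factor that amplifies type I interferon, stood at 5.62, 4.92 and 23.6, and Irf8, a factor of myeloid cells, at 0.399, 0.583 and 5.62. Irf1, an early factor, measured 1.52 FPKM (control) and 27.5 (DTA) at day 1, then 1.40 (control) and 30.9 (DTA) at day 5, so it was already high at day 1. The kinases Jak1 (25.7 and 27.2 FPKM at day 5) and Tyk2 (2.93 and 4.49) were not called.

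Upstream nucleic acid sensing held 1 call among 15 genes measured at day 5, the adaptor Myd88, at 3.84 FPKM in control and 9.13 in DTA; it ended under median ratio scaling (0.86). Mavs, the adaptor of RIG-I and MDA5, stood at 9.32 and 8.66 FPKM. Among 8 brakes on the pathway Socs3, the inhibitor of JAK kinases, was called at both days, with 0.941 and 15.4 FPKM at day 1 and 1.75 and 31.8 at day 5. Socs1, the inhibitor of interferon receptors, stood at 0.678 and 2.59 FPKM at day 5. Of 47 other interferon-stimulated genes 11 were called higher at day 5 and none lower, with a median of 0.53. Cxcl10, a chemokine for T cells, had the largest difference (5.19), at 35.6 FPKM in day 5 DTA and listed at 0 in control, followed by the GTPases Irgm1 (2.95), Igtp (2.89), Gbp2 (2.86) and Gbp3 (2.72), and Ifitm3 (2.57), which blocks virus entry. At day 1, 2 of 19 were called, Irgm1 (1.78) and Igtp (1.18), followed by Lgals9 at 0.65.

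**Figure D4:**
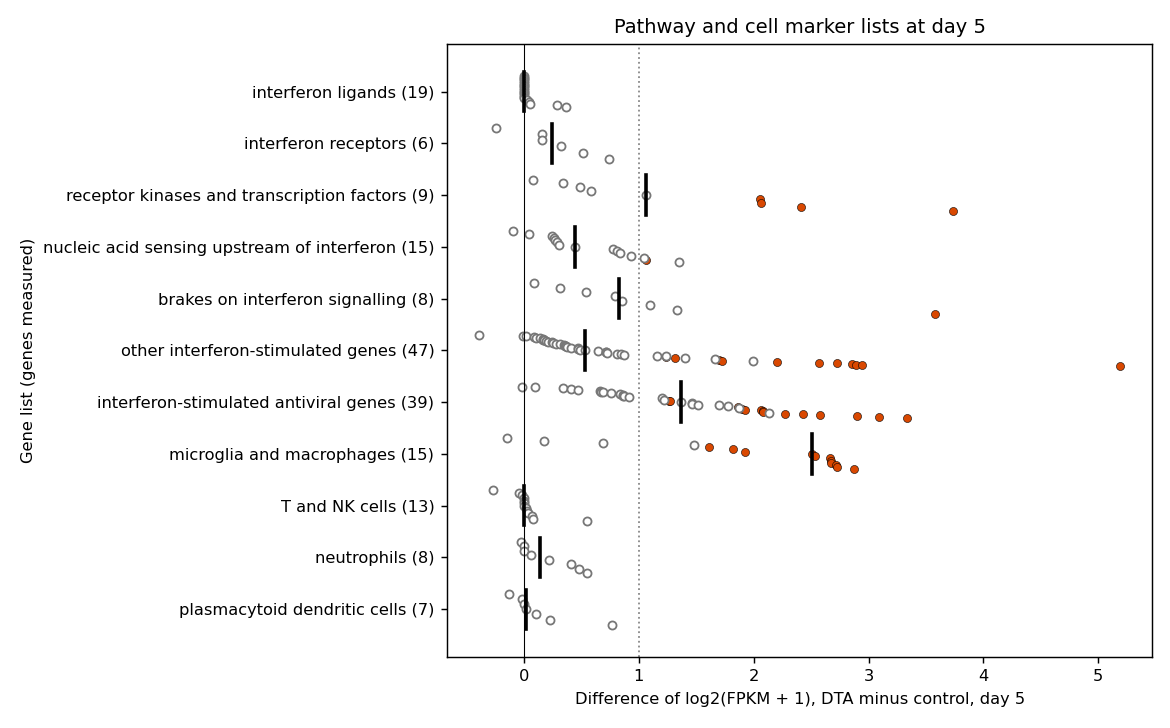
Each point is a gene's day 5 difference of log2(FPKM + 1), DTA minus control, by list, filled where called; bars are list medians, the dotted line is the size of 1, and numbers in brackets count genes measured. The ligands have a median of 0 and the receptors one of 0.24 (from -0.24 to 0.74), the 39 antiviral genes have a median of 1.36, and microglia and macrophage markers one of 2.51.

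Markers of other cells differed alongside the day 5 result. Of 15 microglia and macrophage markers 11 were called higher, and their summed FPKM was 26.1 (day 1) and 25.6 (day 5) in the controls and 185.3 in day 5 DTA. Aif1 (2.72) and Fcer1g (2.73) were among them, while P2ry12 (0.17) and Siglech (-0.15) were not. Their part in the day 5 antiviral gene result was not tested. At day 1, 3 of the 15 were measured in DTA and none was called, with summed FPKM of 3.06 in control and 4.14 in DTA. Of these Cd68 stood 1.96-fold higher (0.982 and 1.92 FPKM), a difference of 0.559. Fcer1g (0.105) and Lyz2 (-0.00583) differed less. The part of these 3 markers in the day 1 result was not tested. Of 13 T and NK cell markers none was called at day 5, and Cd3e, Cd3g and Ncr1 were listed at 0 in both controls and day 5 DTA. None of 8 neutrophil markers was called, with sums of 0.371, 0.279 and 1.74 FPKM in the controls and day 5 DTA, where S100a9 was at 0. None of 7 plasmacytoid dendritic cell markers was called, and Ly6d was at 0 in the same libraries. In these lists 6, 5 and 4 markers stood higher in day 5 DTA than in its control, and 3, 1 and 2 lower. The largest differences were those of Lck (0.177 and 0.720 FPKM), Camp (0.0643 and 0.553) and Spib (0.0337 and 0.754). Lck, Camp and Spib lay under the floor, so the lack of calls does not show that these cells were absent. Thy1 (93.5 and 77.2 FPKM) and Pacsin1 (108.9 and 99.0) lay over the floor and were among the markers that stood lower. Of 20 rod markers 14 were called lower at day 5 and of 10 Müller glia markers 2, while none of 9 endothelial markers was called. Lens markers also differed within the comparisons, with 5 of 11 called lower at day 5 (summed FPKM 267.6 in control and 16.1 in DTA). At day 1 the 5 measured summed to 664 in control and 1267 in DTA, with none called. Cryga (2.14), Crygb (1.26) and Crygd (1.29) reached the size of 1 but differed more between the controls. The other 2 stood slightly lower in DTA. The 9 retinal pigment epithelium markers summed to 39.7 FPKM in control and 17.5 in DTA at day 5. At day 1 the 2 measured summed to 52.6 and 30.9, and none was called at either day. The part of the rod, Müller glia, lens and retinal pigment epithelium differences in the antiviral gene results was not tested.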

How the data were processed

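Total RNA from whole retinas was made into mRNA-seq libraries, per the labels' protocols. The authors deposited FPKM per gene with confidence bounds, per the file headers. CASAVA 1.8.2, bcl2fastq 1.8.4, Cufflinks 2.1.1 and build mm9 are named in the submitters' processing notes, without roles. Aligner and annotation: not given in the sources used here. FPKM are relative to the library, so a loss of abundant rod transcripts can raise other values. How far it did so here was not tested.

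Lines of status FAIL or HIDATA were read as missing; no antiviral gene was among them. The FPKM of 251 symbols with several loci were summed; none is an antiviral gene. File starts had 1 added. The files hold no fragment counts: depth comes from the commonest low product of FPKM and transcript length in 100 to 438 genes with 1 annotated transcript, read as 1 fragment. Because the values are FPKM from 1 library per group, no test was made; the pseudocount was 1 and the floor 5 FPKM. The size rule was tested on simulated data, in which only genes above the floor in control were changed. The simulated noise came from the authors' bounds and lacks the spread between mice. Most antiviral genes were under the floor in the controls, so the simulation does not show how the rule performs for them. Python 3.11.15 and pandas 2.3.3 were used.

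The genes and lists were chosen with earlier results of these data known. Every antiviral gene is accounted for; those at 5 FPKM or more in a library are given in each library. From the other pathway lists, called genes were named, and from the longest one the largest 6 differences at day 5 and 3 at day 1; unnamed calls are in the counts. Receptors, kinases, Mavs, Socs1 and some cell markers were named in addition, after their values were seen. A gene of the pathway lists is not reported here. Alternatives were other pseudocounts, floors, sizes, scalings and controls.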

Additional observations from a re-analysis of the deposited data

Results flagged for a closer look

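Ifi27l2a had opposite signs at the 2 days. DTA minus control was -0.14 at day 1, with 0.654 and 0.50 FPKM, and 1.70 at day 5, with 0.359 and 3.41 FPKM. The day 1 sign turns with the control: against the day 5 control it was 0.14, and the authors' bounds at day 1 overlap (0.210 to 0.762 in control, 0.177 to 0.570 in DTA). Each day has 1 library per group, and the difference between the days was not tested.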

How the results depend on the processing

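The number of antiviral genes called higher at day 5 (15) was between 11 and 15 with pseudocounts of 0.1 and 5, other scalings, the other control, the mean of both controls, no rule on the controls, the largest locus, a size of 1.5-fold and the authors' bounds. It was 25 with a floor of 1 FPKM or none, 9 with a floor of 10 FPKM or a size of 4-fold, and 34 by the ratio rule added after the values were seen. The day 5 median (1.36) was 2.24 and 0.65 with pseudocounts of 0.1 and 5, 1.20 under median ratio scaling, 1.25 with the FPKM sum without rod markers and the 50 most abundant genes, and 1.60 over genes with a mean of at least 1 FPKM. At day 1 the count (1) was 0 with a pseudocount of 5, a floor of 10 FPKM or either scaling, 3 at 1.5-fold and 2 by the ratio rule; the median (0.51) was 0.72 and 0.22 with pseudocounts of 0.1 and 5 and 0.61 over genes with a mean of at least 1 FPKM. The count with a larger day 5 than day 1 difference (2) was 1 with a pseudocount of 5 and 0 at 4-fold. None was called between the controls with the other pseudocounts, floors, sizes, scalings or the largest locus. No called antiviral gene changed sign under those settings. No paired analysis was possible because each group has 1 library. Depth limits genes under about 0.1 FPKM, such as Oas2 and Oas3.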
